A study of Mus musculus with 20 samples.

Results

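The 32 genes described here make up the folding and disposal machinery of the endoplasmic reticulum (ER): the chaperones that hold newly made secretory proteins, the enzymes that form their disulfide bonds, the factors of ER-associated degradation that pull out the ones that do not fold, and the sensors that watch the load. They were taken from a list of named genes, which was chosen with earlier results of these data known. Each was read from the brightest probe set that names it alone. All 32 were found among the 18193 genes that could be read in this way. The livers came from male C57BL/6J mice, a strain that 1 label field spells C56BL/6J, which were 7 weeks old when the 12 weeks of feeding began and were fasted for 2 h before the tissue was taken. Mice of the CL + AX group ate the CL diet (fat as 60% of its calories, with 0.5% sodium cholate and 1.25% cholesterol) with 0.02% astaxanthin, a red carotenoid, and mice of the CL + VE group ate it with 0.02% vitamin E. Mice of the CL group ate the CL diet alone, a diet that gives mice steatohepatitis, and mice of the NC group ate normal CRF-1 chow. Each group had 5 mice, and the RNA of each mouse was hybridized to 1 Affymetrix Mouse Genome 430 2.0 array, whose probe sets report a signal for each transcript.

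Hepatocytes secrete most of the proteins of the plasma, so their ER is large and its chaperones are among the most abundant transcripts of the cell. When unfolded proteins build up, the chaperone BiP (Hspa5) lets go of the sensors IRE1 (Ern1), PERK (Eif2ak3) and ATF6 (Atf6). IRE1 then splices the mRNA of Xbp1, ATF6 is cut to release a transcription factor, and PERK slows translation through EIF2. The XBP1 and ATF6 proteins bind the ER stress response element and raise the genes of chaperones and of degradation. An array of this kind measures the total Xbp1 mRNA and not its splicing, and a liver homogenate cannot tell fewer cells of a type from less RNA per cell.

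The letters of the ER stress response element (CCAAT, 9 bases of any kind, then CCACG, on either strand) are printed because several members share them. The element serves the functions by which the members were listed, so its share among them is a description and not a test. The windows searched were those of RefSeq on GRCm38.p6, from 250 bases before to 50 bases after the annotated start, and 27 of the 32 members had one. The element was found in 10 of the 27 members (37.0%), against 37 of 27025 genes with a window (0.137%). Its second form (ATTGG, any 1 base, then CCACG) was found in 2 members (7.4%), Herpud1 and Dnajb11, against 0.0444% of all genes. The letters TGACGTGG, the core of a site that XBP1 binds, were in 0 of the 27 windows, against 0.714% of all genes. Each element is printed in its own 5′ to 3′ direction with its fixed ends in capitals.
Hspa5: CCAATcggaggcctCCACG
Calr: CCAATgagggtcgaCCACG
Derl3: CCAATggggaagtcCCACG
Hsp90b1 element 1: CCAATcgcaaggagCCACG
Hsp90b1 element 2: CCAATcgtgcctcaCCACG
Canx: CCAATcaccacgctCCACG
Pdia6: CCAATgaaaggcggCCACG
Ero1b: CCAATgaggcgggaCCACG
Dnajc3: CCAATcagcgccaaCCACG
Creld2: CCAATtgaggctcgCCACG
Syvn1: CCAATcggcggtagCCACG
Herpud1: ATTGGgCCACG
Dnajb11: ATTGGcCCACG
The 250 bases before the start are printed for 4 members that the results below turn on: the chaperones Hspa5 and Calr, the cochaperone Dnajc3 and the degradation factor Herpud1. The whole element is in capitals, and in Calr it lies on the opposite strand, so that it reads there as its reverse complement.
Hspa5 (chr2:34771840-34772089, plus strand): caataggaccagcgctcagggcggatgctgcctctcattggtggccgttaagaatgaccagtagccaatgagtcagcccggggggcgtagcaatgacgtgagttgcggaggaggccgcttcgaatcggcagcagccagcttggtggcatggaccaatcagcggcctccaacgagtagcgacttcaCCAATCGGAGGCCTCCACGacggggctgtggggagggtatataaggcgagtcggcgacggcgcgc
Calr (chr8:84846932-84847181, minus strand): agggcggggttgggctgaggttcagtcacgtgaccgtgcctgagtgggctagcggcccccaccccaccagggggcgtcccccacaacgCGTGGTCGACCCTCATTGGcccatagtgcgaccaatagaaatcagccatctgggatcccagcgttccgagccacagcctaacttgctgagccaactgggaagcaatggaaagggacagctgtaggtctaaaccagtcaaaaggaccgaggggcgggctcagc
Dnajc3 (chr14:118937682-118937931, plus strand): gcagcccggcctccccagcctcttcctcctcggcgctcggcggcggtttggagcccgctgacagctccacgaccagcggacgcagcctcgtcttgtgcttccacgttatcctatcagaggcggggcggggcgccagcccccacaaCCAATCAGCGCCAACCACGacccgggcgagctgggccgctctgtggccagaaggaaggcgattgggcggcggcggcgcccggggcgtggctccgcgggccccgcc
Herpud1 (chr8:94386179-94386428, plus strand): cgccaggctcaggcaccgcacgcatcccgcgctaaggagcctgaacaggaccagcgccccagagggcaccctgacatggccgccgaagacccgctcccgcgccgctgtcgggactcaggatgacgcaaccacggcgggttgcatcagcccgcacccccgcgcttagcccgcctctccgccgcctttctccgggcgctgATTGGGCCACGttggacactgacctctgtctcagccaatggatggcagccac
Counted in bases from the start, the element ran from -65 to -47 in Hspa5, -162 to -144 in Calr, -105 to -87 in Dnajc3 and -52 to -42 in Herpud1, which has the second form. A match of letters is a description of the sequence and says nothing of binding in these livers.

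The arrays themselves differed between the diets. The 3′/5′ log2 signal ratio of the added Dap control was 0.787 to 1.03 in CL + AX, 0.773 to 1.81 in CL + VE and 0.76 to 1.15 in CL, against 2.76 to 3.11 in NC, and the 18S rRNA control read 11 to 12.2 in CL against 8.1 to 9.58 in NC on the log2 scale. In an exact two-sided permutation test over the 10 arrays of CL and NC, both differed with p = 0.00794, the smallest that 5 against 5 allows, and an adjusted p of 0.0196 over 42 such tests. By the same test the added Thr control differed too (adjusted p = 0.0196), while the added Phe (0.655) and Lys (0.897) did not. Because every NC array differs in Dap and 18S from every array of the CL diet, diet and array handling cannot be told apart. The 3′/5′ ratio of Actb also differed between the CL diets, at 1.07 to 1.23 in CL + AX, 1.32 to 1.51 in CL + VE and 1.01 to 1.25 in CL (exact two-sided permutation test, adjusted p = 0.0196 for CL + VE against CL and for CL + AX against CL + VE). The median deposited signal lay between 26.44 and 27.79 in CL + AX, 17.08 and 20.77 in CL + VE, 19.4 and 24.88 in CL, and 13.05 and 18.87 in NC, so signals were quantile-normalized before any comparison. The summed signal of 13 macrophage markers was 10700 to 26000 in CL against 2100 to 6430 in NC, with 12 of the 13 higher and 0 lower. Of 10 markers of stellate cells and fibroblasts 8 were higher in CL, as were 5 of 7 of endothelial cells and 4 of 7 of T and NK cells, with 0 lower in each. The sum of 11 hepatocyte markers was 113000 to 118000 in CL against 112000 to 114000 in NC. Of these 11, 2 were higher and 1 lower, with log2 fold changes between -0.594 and 0.311. A sum of such bright genes can move little, because quantile normalization gives every array the same distribution of signals. It therefore does not measure the share of hepatocytes. Of 9 plasma cell and B cell markers 1 was higher and 1 lower. The part of array quality and of these cells in the values of the members was not tested.

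All 32 members read at or above the median signal of the genes, with the dimmest near the middle. P4hb (mean log2 signal 12.66), Hspa5 (12.31), Xbp1 (12.1), Hsp90b1 (11.89), Herpud1 (11.78) and Calr (11.75) stood at the top, at or above the 98th percentile of genes. Derl3 (5.95), Wfs1 (6.80) and Sdf2l1 (7.30) were the dimmest, at the 53rd, 62nd and 67.9th percentile. Signals of different probe sets do not measure amounts on a common scale, so this order is one of brightness.

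To learn how the CL diet bore on this machinery, CL was compared with NC. In limma with the Benjamini-Hochberg adjustment over all 45037 probe sets, 2 of the 32 members were higher in CL, 8 were lower and 22 did not pass the adjusted p of 0.05. Among all genes 12% were higher and 11.3% lower, and among the 9097 genes at or above the median signal, where all members lie, 18.3% were higher and 19.5% lower. These directions depended on the scaling between arrays: 4 members were higher and 0 lower with no scaling, 0 higher and 13 lower with arrays centred on their medians, and 1 higher and 10 lower with trimmed-mean scaling. The members higher in CL were Pdia3 and Dnajc3. The members lower in CL were Calr, P4hb, Dnajb11, Derl1, Derl3, Edem2, Os9 and Sec61a1. These 10 called members had 17 other probe sets, of which 8 shared the sign. Of those 17, 6 were called, 5 of them in the same direction. All CL mice lay below all NC mice for 4 members and above them for 0, beside 1428 and 1469 of the 18193 genes. The median log2 fold change of the members was -0.08, against -0.04 for all genes (a difference of -0.05), and 11 of the 32 had a positive value. That last count was 24 with no scaling between arrays, 4 with arrays centred on their medians and 8 with trimmed-mean scaling.

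**Figure D1:**
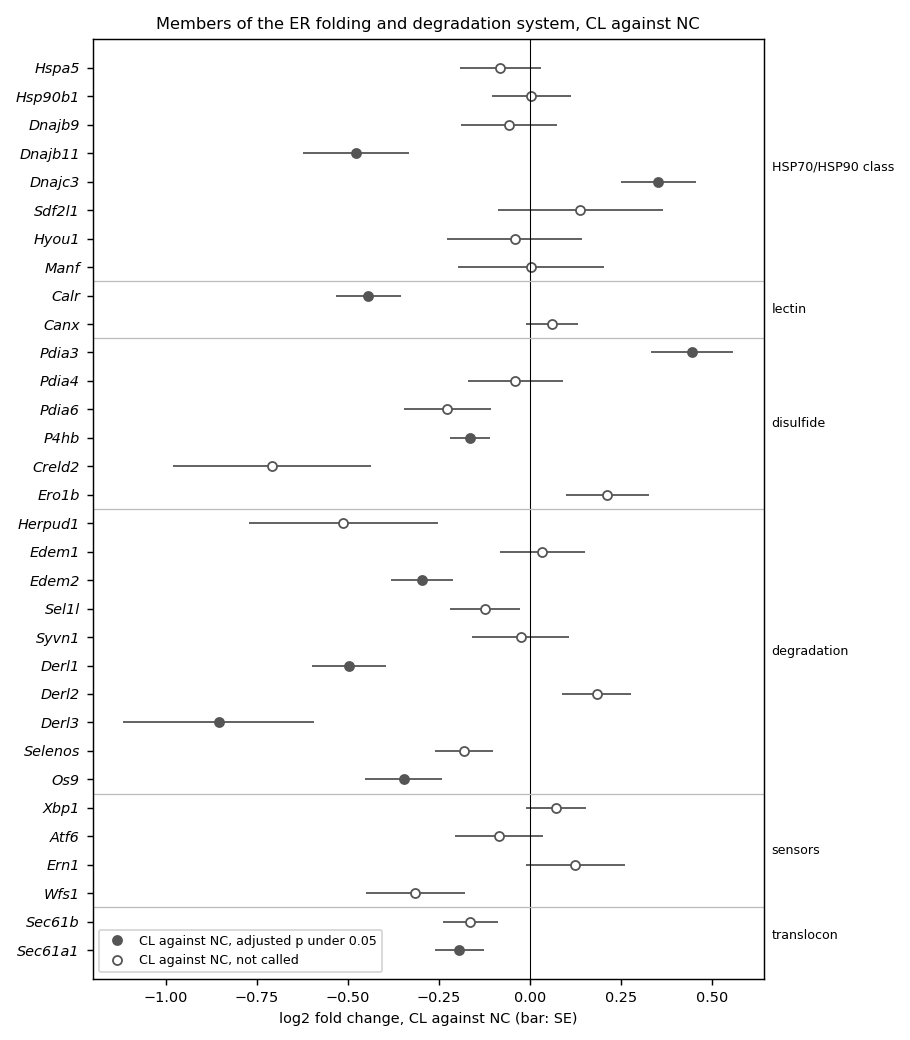
Log2 fold change of each of the 32 members in CL against NC (horizontal axis), with its SE as a bar, in the order of their roles. Filled points passed the adjusted p; of the 10, Pdia3 and Dnajc3 lie to the right of 0 and 8 lie to the left, of which Edem2 and Sec61a1 changed sign when arrays were not scaled.

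Of the 8 chaperones of the HSP70 and HSP90 class and their cochaperones 1 was higher in CL, 1 was lower and 6 were not called. Hspa5, the chaperone BiP and the standard readout of ER stress, read 12.43, 12.13, 12.28, 12.27 and 12.50 in CL, against 12.72, 12.11, 12.24, 12.32 and 12.63 in NC. The CL values lay inside the range of NC, and the log2 fold change was -0.08 ± 0.11 (SE, adjusted p = 0.702 in limma). The 95% interval of the fold ran between 0.805 and 1.11, so that it left out a rise beyond 1.11-fold under this scaling. Hspa5 passed as lower in CL with arrays centred on their medians (-0.50, adjusted p = 0.0144) and with trimmed-mean scaling (-0.36, adjusted p = 0.0408). Hsp90b1, the ER form of HSP90 (GRP94), was as close, at 0.00 ± 0.11 with an interval of 0.858 to 1.17 in fold. The ER cochaperone Dnajb9 had -0.06 ± 0.13, the HSP70 relative Hyou1 -0.04 ± 0.19, the secreted BiP partner Manf 0.00 ± 0.20 and Sdf2l1, which works with Dnajb11, 0.14 ± 0.23 (SE of the log2 fold change, adjusted p between 0.752 and 0.994).

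The pair of this class that did pass went opposite ways. Dnajb11 (ERdj3), a cochaperone that hands unfolded chains to BiP, read 8.35, 7.73, 8.25, 8.40 and 8.65 in CL, against 9.10, 8.46, 8.58, 8.60 and 9.03 in NC. Only the highest CL mouse reached into the range of NC, and the fold was 1.39 lower (log2 fold change -0.48 ± 0.15, adjusted p = 0.0251). Without CL replicate 2 it was -0.34 with an adjusted p of 0.086, and without NC replicate 1 or 5 the adjusted p was 0.0778 or 0.0677. Dnajc3 (p58IPK), a cochaperone that is also known as an inhibitor of PERK, read 10.82, 10.29, 10.58, 10.63 and 10.82 in CL, against 10.29, 10.15, 10.16, 10.22 and 10.55 in NC. It was 1.28-fold higher (0.35 ± 0.10, adjusted p = 0.0203), with CL replicate 2 the one CL mouse as low as the NC mice. It did not pass with arrays centred on their medians (0.13, adjusted p = 0.596) or with trimmed-mean scaling (0.27, adjusted p = 0.0899). The call was kept in 5 of 9 other settings. The adjusted p was 0.0587 and 0.0631 without CL replicate 1 or 5, and 0.054 and 0.0541 without NC replicate 2 or 3. Of its 4 other probe sets 1 rose as well (0.82, adjusted p = 0.0114), and the remaining ones lay between -0.06 and 0.17 and were not called.

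Of the lectin chaperones, which hold glycoproteins by their sugar, calreticulin was lower and calnexin was not called. Calr read 11.75, 11.52, 11.31, 11.57 and 11.77 in CL, against 12.16, 11.91, 12.01, 12.13 and 11.94 in NC. All 5 CL mice lay below all 5 NC mice, with means of 11.58 ± 0.19 in CL and 12.03 ± 0.11 in NC (SD, n = 5 each). The fold was 1.36 lower (log2 fold change -0.44 ± 0.09, adjusted p = 0.00109), and the 2 other probe sets of Calr gave -0.46 and -0.45, both called. The call was lost when arrays were not scaled (-0.34, adjusted p = 0.0562) and was kept in the other 8 settings and without any 1 array. Canx read 11.34 to 11.79 in CL against 11.50 to 11.57 in NC, with an SD of 0.20 in CL and 0.03 in NC (log2 fold change 0.06 ± 0.07, adjusted p = 0.65). Its dimmest probe set, with a mean of 7.46, fell by 0.92 with an adjusted p of 3.13e-05.

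Among the disulfide enzymes Pdia3 was higher and P4hb lower in CL. Pdia3 (ERp57), the partner of calnexin and calreticulin, read 11.05, 10.43, 10.77, 10.85 and 11.06 in CL, against 10.34, 10.23, 10.39, 10.55 and 10.43 in NC. Here again 4 of 5 CL mice lay above all NC mice and CL replicate 2 did not (1.36-fold higher, log2 fold change 0.45 ± 0.11, adjusted p = 0.00767). With arrays centred on their medians the value was 0.22 (adjusted p = 0.288). Its other probe set, dim at a mean of 5.25, gave -0.14 and was not called, and the mean over both was 0.15 (adjusted p = 0.453). P4hb, the classical protein disulfide isomerase and the brightest member, read 12.71, 12.77, 12.73, 12.51 and 12.61 in CL, against 12.81, 12.79, 12.90, 12.91 and 12.76 in NC. The shift was small, 1.12-fold lower (-0.17 ± 0.05, adjusted p = 0.0383), on a probe set that scattered little between mice. The call was lost without CL replicate 4 or 5 or NC replicate 1, 3 or 4, with an adjusted p between 0.0501 and 0.125. The remaining enzymes were not called: Pdia6 had -0.23 ± 0.12 (adjusted p = 0.222), Pdia4 -0.04 ± 0.13, the oxidase Ero1b 0.21 ± 0.12 (adjusted p = 0.235) and the stress-responsive Creld2 -0.71 ± 0.27 (adjusted p = 0.076). Creld2 had the second largest value of all members, but its SD was 0.45 in CL and 0.51 in NC.

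Of the 10 degradation factors 4 were lower in CL and 0 higher, beside 19.5% and 18.3% of genes at or above the median signal. With no scaling between arrays 0 of the 32 members were lower. Derl1, a channel component through which proteins leave the ER, read 10.45, 10.40, 10.13, 10.13 and 10.23 in CL, against 11.05, 10.73, 10.55, 10.76 and 10.73 in NC. No CL mouse reached the lowest NC mouse (1.41-fold lower, log2 fold change -0.50 ± 0.10, adjusted p = 0.00118). Its 3 other probe sets gave 0.03, -0.10 and 0.22 and none was called, so 1 of its 4 probe sets carries the call. Edem2, which trims mannose from doomed glycoproteins, read 8.35, 8.25, 8.13, 7.93 and 8.10 in CL, against 8.32, 8.56, 8.45, 8.55 and 8.36 in NC. Its value was -0.30 ± 0.09 (adjusted p = 0.0189), and it reversed to 0.13 when arrays were not scaled. The call was kept in 4 of 9 other settings, and over all settings run the adjusted p reached 0.923. Without CL replicate 4 or NC replicate 2 the adjusted p was 0.0659 or 0.0524. Os9, a lectin that reads those trimmed sugars, read 9.78, 9.28, 9.50, 9.63 and 9.53 in CL, against 9.77, 9.83, 10.10, 10.23 and 9.53 in NC. The lowest NC mouse lay within the range of CL, and the value was -0.35 ± 0.11 (adjusted p = 0.0241). The call was lost without CL replicate 2 or 3 or NC replicate 3 or 4 (adjusted p between 0.0503 and 0.0825), while its second, dimmer probe set gave 0.25 and was not called.

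Derl3 had the largest change of all members. It ran between 4.99 and 6.02 in CL against 6.12 and 6.64 in NC, with no overlap (1.81-fold lower, -0.86 ± 0.26, adjusted p = 0.0262). It is also the dimmest member, and leaving out CL replicate 2 or 4 or NC replicate 1 or 3 gave an adjusted p between 0.0576 and 0.0828. Herpud1, a small membrane protein that gathers the degradation complex and is strongly raised by ER stress, ran between 11.24 and 12.19 in CL against 12.09 and 12.53 in NC (-0.51 ± 0.26, adjusted p = 0.199). With trimmed-mean scaling it passed as lower (-0.78, adjusted p = 0.031). Edem1 had 0.03 ± 0.12, Sel1l, the scaffold of the HRD1 ligase, -0.12 ± 0.10, and Syvn1, the ligase HRD1 itself, -0.03 ± 0.13. Derl2 had 0.18 ± 0.09 and Selenos, a selenoprotein of the same complex, -0.18 ± 0.08 (adjusted p = 0.207 and 0.128). For Edem1 the second probe set, nearly as bright (mean 9.36), was called higher (0.57, adjusted p = 0.000719).

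None of the 4 sensors and regulators was called in CL against NC. Xbp1 had 0.07 ± 0.08 (fold interval 0.933 to 1.18), Atf6 -0.09 ± 0.12, Ern1 0.12 ± 0.14 and Wfs1, an ER membrane protein that restrains ATF6, -0.32 ± 0.14 (adjusted p = 0.127). A second bright probe set of Xbp1 (mean 11.2) was called higher (0.38, adjusted p = 0.00382), whereas the brightest one passed as lower with arrays centred on their medians (-0.33, adjusted p = 0.0353). Atf6 passed as lower with the mean over its probe sets (-0.30, adjusted p = 0.0492). Of the translocon, the pore by which chains enter the ER, Sec61a1 was lower and Sec61b was not called (-0.16 ± 0.08, adjusted p = 0.153). Sec61a1 read 10.20, 10.12, 10.02, 10.18 and 10.21 in CL, against 10.40, 10.37, 10.27, 10.41 and 10.24 in NC. The groups did not overlap, but the difference was small (1.14-fold, -0.19 ± 0.07) and stood at the threshold (adjusted p = 0.0499). It kept the call in 4 of 9 other settings and when 5 of the 20 arrays were left out in turn, turned to 0.11 with no scaling, and of its 5 other probe sets 2 were called lower and 1 higher.

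Members with and without the ER stress response element overlapped in their values. Of the 10 with the element 1 was higher and 2 were lower in CL, with a median log2 fold change of -0.05, and of the 17 with a window and no such element 1 was higher and 4 were lower, with a median of -0.12. Values of the 10 ran between -0.86 (Derl3) and 0.35 (Dnajc3). The element ran from -156 to -138 in Derl3, upstream of its place in Dnajc3. It lay further upstream in Calr (-162 to -144), Ero1b (-201 to -183) and element 1 of Hsp90b1 (-212 to -194). Of these Calr was lower in CL, and Ero1b and Hsp90b1 were not called.

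**Figure D2:**
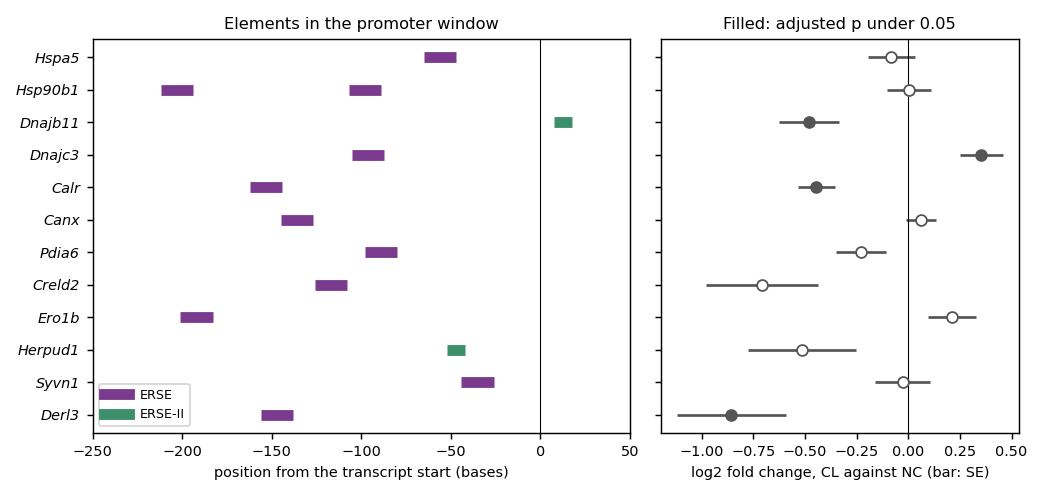
Position of the ER stress response element (ERSE, purple) and its second form (ERSE-II, green) in the promoter windows of the 12 members that hold one, in bases from the transcript start (left), and the log2 fold change of the same genes in CL against NC with its SE (right; filled where the adjusted p passed). Derl3, Calr and Dnajb11 lie left of 0 and Dnajc3 lies right of 0 among the filled points.

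Genes of neighbouring steps, from lists of other factors of the same pathway, were called in both directions, and their counts stand beside 12% higher and 11.3% lower among all genes, and 18.3% and 19.5% among genes at or above the median signal. In the PERK and EIF2 arm 2 of 20 measured genes were higher in CL and 6 lower. Eif2ak3, which encodes PERK, had 0.63 ± 0.16 (adjusted p = 0.00904), whereas Asns, an amino acid gene that ATF4 drives, fell by 3.55 with an SE of 0.42 (adjusted p = 4.09e-06). Phgdh, an amino acid gene of the same list, went the other way, at 1.26 ± 0.43 (adjusted p = 0.0444) with a low mean log2 signal of 4.90. Among 21 factors of signal recognition, translocation and signal peptidase 1 was higher and 4 lower, with Spcs2 at 0.39 and Sec63, the partner of BiP at the translocon, at -0.59 (adjusted p = 9.38e-06). Of 19 genes of N-glycosylation 2 were higher and 7 lower, among them the oligosaccharyltransferase subunits Tusc3 at 0.73 and Rpn1 at -0.58 (adjusted p = 9.26e-05) and Prkcsh, the beta subunit of glucosidase II, at -0.59 (adjusted p = 7.18e-05). Of 24 other folding enzymes 6 were higher and 3 lower, with the peroxiredoxin Prdx4 at 0.64 and Txndc5 at -0.41. Of 26 other degradation factors 3 were higher and 8 lower, and of 14 further transducers and proteases 0 were higher and 5 lower, with Map3k5 (ASK1), a kinase downstream of IRE1, at -0.73 (adjusted p = 2.78e-05). The medians of these 6 lists ran between -0.19 and 0.03.

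To learn whether a supplement changed the machinery within the CL diet, CL + AX and CL + VE were each compared with CL. Of the 32 members 0 passed in either comparison, as did 0% of the 18193 genes in each. The methods' t-test with the same adjustment also called 0 members. At an unadjusted p under 0.05, 5 members were higher and 1 lower with astaxanthin, beside 4.03% and 4.02% of all genes. With vitamin E 1 was higher and 2 were lower, beside 4.85% and 2.7% of all genes. Both comparisons use the same 5 CL mice. The median log2 fold change relative to all genes was 0.07 with astaxanthin and -0.03 with vitamin E, and both signs turned with no scaling, median centring or trimmed-mean scaling (-0.00367 and 0.00413). These settings differ by a constant per array that cancels in this difference, so their values are equal by construction. Beside the vitamin E values stands the higher Actb 3′/5′ ratio of the CL + VE arrays, whose part was not tested.

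**Figure D3:**
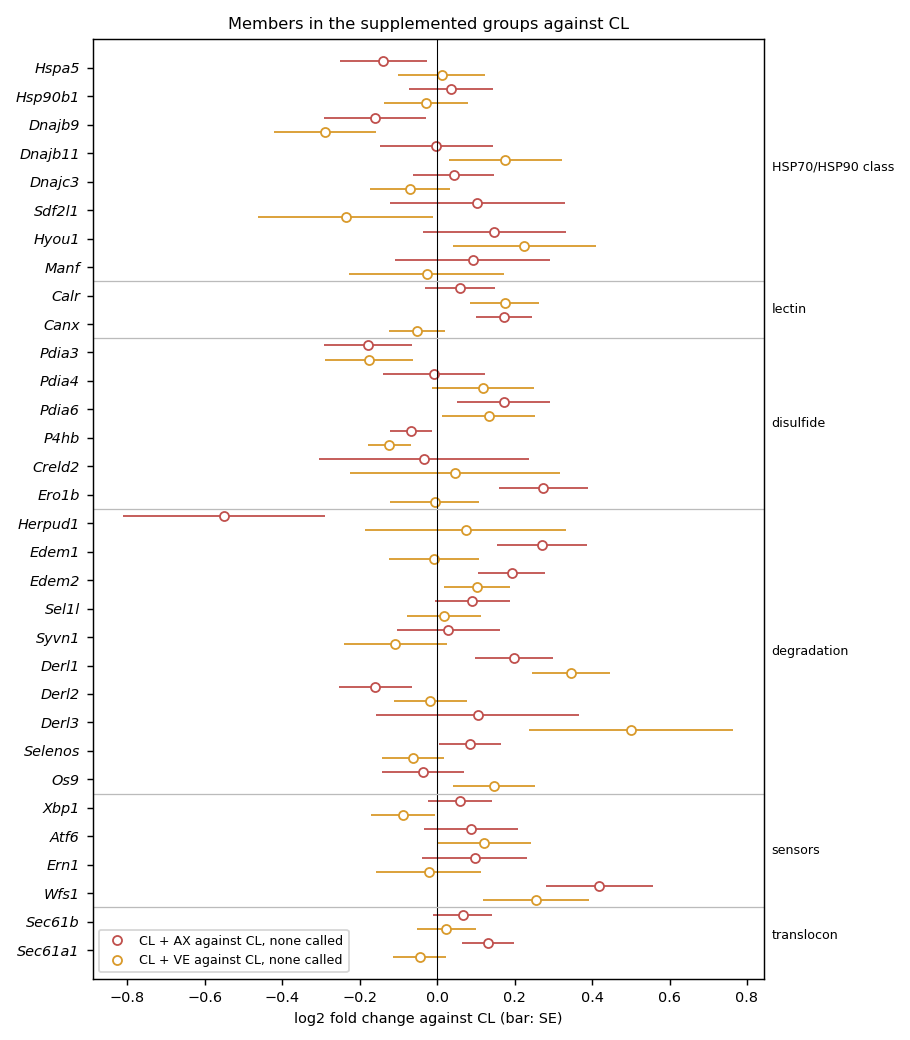
Log2 fold change of the 32 members in CL + AX against CL (red) and in CL + VE against CL (yellow), with SE bars, by role. No point passed the adjusted p; the widest gaps between the pairs are those of Herpud1 (-0.55 and 0.07) and Derl3 (0.10 and 0.50).

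The members with the smallest unadjusted p with astaxanthin were Wfs1, Ero1b, Canx, Edem1, Edem2 and Herpud1. Wfs1 read 7.13, 6.99, 6.98, 7.10 and 6.64 in CL + AX, against 6.75, 6.56, 6.43, 6.68 and 6.32 in CL. Of the CL + AX mice 4 lay above all CL mice, and the log2 fold change was 0.42 ± 0.14 (adjusted p = 0.482 in limma), with a fold interval of 1.1 to 1.63. Edem1 read 9.76, 9.78, 10.12, 10.05 and 9.82 in CL + AX, against 9.76, 9.62, 9.69, 9.69 and 9.43 in CL, and its groups just did not overlap (0.27 ± 0.12, adjusted p = 0.638), although its second probe set gave -0.23. Sec61a1 was the other member without overlap, at 10.22 to 10.33 in CL + AX against 10.02 to 10.21 in CL (0.13 ± 0.07, adjusted p = 0.727). Among the 18193 genes 174 lay above CL without overlap and 183 below.

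Herpud1 stood out for the scatter of the CL + AX mice. It read 10.71, 10.08, 11.49, 11.89 and 11.91 in CL + AX, against 11.24, 11.67, 11.71, 12.19 and 12.03 in CL. Replicates 1 and 2 of CL + AX were the lowest of all 20 mice, and the SD was 0.80 in CL + AX and 0.37 in CL. The log2 fold change was -0.55 ± 0.26 (adjusted p = 0.682), and without CL + AX replicate 2 it was -0.27. In its second probe set it was -0.49. Ero1b read 10.60, 9.89, 10.20, 10.05 and 9.89 in CL + AX, against 10.00, 9.80, 9.88, 9.59 and 10.00 in CL (0.27 ± 0.12, adjusted p = 0.632), with replicate 1 of CL + AX above the rest. Canx read 11.88, 11.65, 11.85, 11.73 and 11.78 in CL + AX, against 11.70, 11.45, 11.34, 11.74 and 11.79 in CL (0.17 ± 0.07, adjusted p = 0.632).

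With vitamin E the smallest p among the members was that of Derl1. Derl1 read 10.67, 10.45, 10.70, 10.44 and 10.80 in CL + VE, against 10.45, 10.40, 10.13, 10.13 and 10.23 in CL, so that 3 of 5 CL + VE mice exceeded all CL mice (0.35 ± 0.10, adjusted p = 0.335). The other 3 probe sets of Derl1 lay between -0.12 and 0.02. P4hb had -0.12 ± 0.05 (adjusted p = 0.616) and Dnajb9 -0.29 ± 0.13 (adjusted p = 0.635). Derl3 had 0.50 ± 0.26, with a fold interval of 0.97 to 2.07. The intervals of Hspa5 and of total Xbp1 mRNA were narrower than that of Derl3. The fold of Hspa5 lay between 0.773 and 1.07 with astaxanthin and between 0.858 and 1.18 with vitamin E. That of Xbp1 lay between 0.926 and 1.17 with astaxanthin and between 0.836 and 1.06 with vitamin E. These intervals hold for the 2 genes only: within groups Creld2 and Herpud1 scattered more (pooled SD 0.49 and 0.48) than Hspa5 (0.19) and Xbp1 (0.13).

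Set against each other, the supplements gave 0 called members and 0% of genes called. At an unadjusted p under 0.05, 4 members were higher in CL + AX and 1 was lower, beside 3.66% and 6.59% of all genes. These were Canx, Sec61a1, Ero1b and Edem1 in the higher direction and Herpud1 in the lower. Canx read 11.65 to 11.88 in CL + AX against 11.49 to 11.59 in CL + VE, with no overlap (log2 fold change 0.22 ± 0.07, adjusted p = 0.305). Among the 18193 genes 173 lay higher in CL + AX without overlap and 288 lower. Herpud1 had -0.62 ± 0.26 (adjusted p = 0.48), and -0.34 without CL + AX replicate 2. With no scaling 4 members were called higher in CL + AX (Edem1, Ero1b, Sec61a1 and Selenos), while arrays centred on their medians gave Os9 alone, as lower. The median of the members relative to all genes was 0.08 in CL + AX against CL + VE. It turned to -0.03 under median centring, trimmed-mean scaling or no scaling, which give equal values by construction.

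Against NC, the supplemented groups were compared in the same fit. In CL + AX 3 members were higher (Ero1b, Dnajc3 and Canx) and 6 were lower (Calr, P4hb, Herpud1, Os9, Dnajb11 and Derl1). With no scaling 14 were higher and 1 was lower, with arrays centred on their medians 0 were higher and 19 lower, and with trimmed-mean scaling 1 was higher and 9 were lower. Among all genes 12% were higher and 11.3% lower, and among genes at or above the median signal 18.4% were higher and 20% lower. In CL + VE 0 were higher and 4 were lower (P4hb, Sec61a1, Selenos and Calr), beside 10.2% and 7.27% of all genes and 15.5% and 12.6% of those at or above the median. At an unadjusted p under 0.05 those counts in CL + VE were 2 and 7, and the methods' t-test called 1 member. In CL + AX 2 members lay above NC without overlap and 3 below, beside 1513 and 1561 of the 18193 genes. In CL + VE these counts were 0 and 3, beside 1280 and 950 genes. All of these comparisons share the NC mice, and calls present in one and absent in another were not tested as differences beyond the comparisons above.

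Calr and P4hb were lower than NC under all 3 CL diets, with calls that were lost when arrays were not scaled except that of P4hb in CL + VE. Without scaling Calr had -0.19 in CL + AX (adjusted p = 0.246) and -0.33 in CL + VE (0.113), and P4hb had -0.12 in CL + AX (0.359) and -0.14 in CL (0.344). Calr averaged 11.64 ± 0.18 in CL + AX, 11.76 ± 0.09 in CL + VE and 11.58 ± 0.19 in CL, against 12.03 ± 0.11 in NC (SD, n = 5 each), and no mouse of the 3 CL diets reached the lowest NC mouse at 11.91. The value in CL + VE was -0.27 ± 0.09 and stood near the threshold (adjusted p = 0.0484), kept when 7 of the 20 arrays were left out in turn. P4hb read 12.62, 12.59, 12.59, 12.61 and 12.59 in CL + AX and 12.51, 12.54, 12.63, 12.53 and 12.51 in CL + VE, all below the lowest NC mouse at 12.76. Its log2 fold changes against NC were -0.23 ± 0.05 (adjusted p = 0.00419) in CL + AX and -0.29 ± 0.05 (adjusted p = 0.00099) in CL + VE. The call in CL + VE held in all 9 other settings and without any 1 array. P4hb is read by 1 probe set only.

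Of the called members Herpud1 had the lowest and Ero1b the highest value in CL + AX. Herpud1 averaged 11.22 ± 0.80 in CL + AX against 12.28 ± 0.20 in NC (SD, n = 5 each), 2.09-fold lower (log2 fold change -1.06 ± 0.26, adjusted p = 0.00554). No CL + AX mouse reached the lowest NC mouse, and without replicate 2 of CL + AX the value was -0.78 (adjusted p = 0.0152). The second probe set gave -0.47 and was not called. Ero1b averaged 10.13 ± 0.30 in CL + AX against 9.64 ± 0.18 in NC, 1.4-fold higher (0.49 ± 0.12, adjusted p = 0.00438), and its 2 other probe sets were called higher too (0.38 and 1.59). With arrays centred on their medians Ero1b was 0.15 and lost the call (adjusted p = 0.503). Dnajc3 in CL + AX lost it there too (0.01, adjusted p = 0.981) and with trimmed-mean scaling (0.29, adjusted p = 0.0609). Canx was 1.17-fold higher in CL + AX (0.23 ± 0.07, adjusted p = 0.0285) and lost the call without CL + AX replicate 1, 3 or 5 or NC replicate 1 or 3 (adjusted p between 0.051 and 0.0779). With arrays centred on their medians it passed in the opposite direction, as lower (-0.32, adjusted p = 0.0322), and with trimmed-mean scaling it was -0.04 and not called. Dnajb11, Derl1 and Os9 were lower in CL + AX (-0.48, -0.30 and -0.38) and turned to 0.06, 0.06 and 0.04 when arrays were not scaled. Selenos was lower in CL + VE (-0.25 ± 0.08, adjusted p = 0.0444), at 10.60 to 10.97 against 10.96 to 11.12 in NC, and its 2 other probe sets were not called (-0.09 and -0.11). Its call was kept when 10 of the 20 arrays were left out in turn, and that of Derl1 in CL + AX when 11 were.

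**Figure D4:**
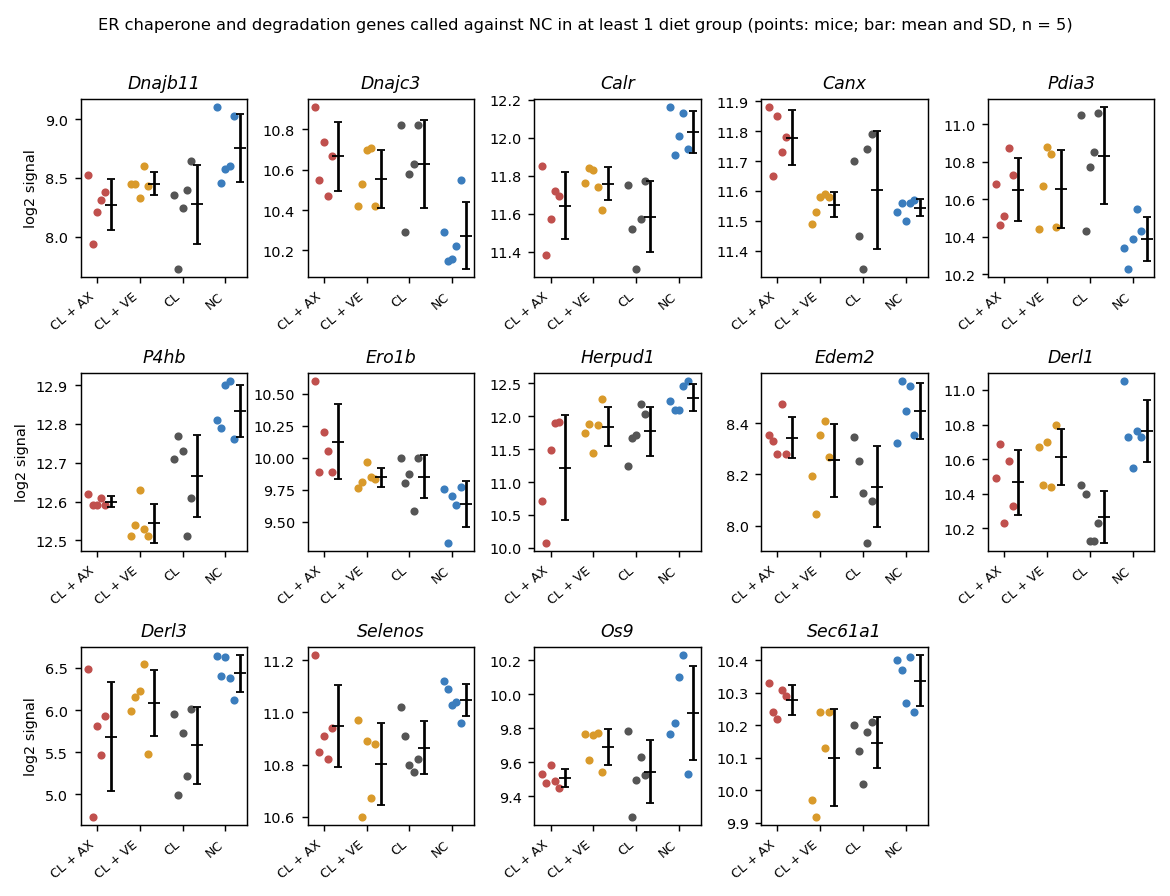
Log2 signal of the 14 members that passed the adjusted p against NC in at least 1 diet group; each point is a mouse, in replicate order, and the bar gives the mean and SD of the 5 mice. Each panel has its own axis: Calr lies below NC in every mouse of the 3 CL diets, and Herpud1 spans 10.08 to 11.91 in CL + AX.

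Mice of 1 group also differed from each other, and some members scattered far more than others. The pooled SD within groups was 0.49 for Creld2, 0.48 for Herpud1, 0.46 for Derl3, 0.40 for Sdf2l1, 0.36 for Manf and 0.33 for Hyou1, on the log2 scale. For P4hb it was 0.07 and for Sec61a1 0.10, and the median over the members was 0.20, against 0.19 over genes at or above the median signal. Creld2, Herpud1 and Derl3 ranked at or above the 94.5th percentile of those genes for scatter. Creld2, Herpud1, Sdf2l1, Manf and Hyou1 are known as genes that ER stress raises. So is Hspa5, whose SD was 0.19, at the 54th percentile of genes at or above the median signal. A link between this scatter and ER stress was not tested.

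The same mice were often lowest or highest across members, a pattern described after the values were seen and without a test, since the members share the mice. Replicate 2 of CL + AX was the lowest of its group for 20 of the 32 members, as it was for 21.9% of genes at or above the median signal. Replicate 2 of CL was the lowest for 16 members, and for 26.3% of those genes. Replicate 5 of CL was the highest for 15 members (15.9% of those genes), and replicate 1 of CL + AX for 14 (22% of those genes). In NC replicates 1 and 5 were the highest for 13 and 9 members (20.5% and 25.5% of those genes).

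Manf, which BiP holds in the ER and which is released under stress, gives the pattern gene by gene. It read 9.91, 9.20, 9.52, 9.91 and 10.12 in CL + AX, 9.38, 9.60, 9.48, 9.90 and 9.72 in CL + VE and 9.80, 9.07, 9.46, 9.88 and 10.00 in CL, against 10.12, 9.09, 9.31, 9.62 and 10.04 in NC. In CL + AX, CL and NC alike the lowest mouse was replicate 2. Creld2 read 8.58, 7.37, 7.93, 8.78 and 8.88 in CL + AX and 8.23, 7.79, 8.08, 8.85 and 8.75 in CL, with replicate 2 lowest in both. Sdf2l1 read 7.91, 6.88, 7.09, 7.64 and 7.83 in CL + AX and 7.64, 6.86, 6.64, 7.58 and 8.10 in CL. Without replicate 2 of CL, 6 of the 10 members called in CL against NC still passed and 1 other, Derl2, was newly called. Without replicate 2 of CL + AX, 8 of the 9 called in CL + AX against NC still passed and 0 were newly called. The part of array quality in this pattern was not tested.

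**Figure D5:**
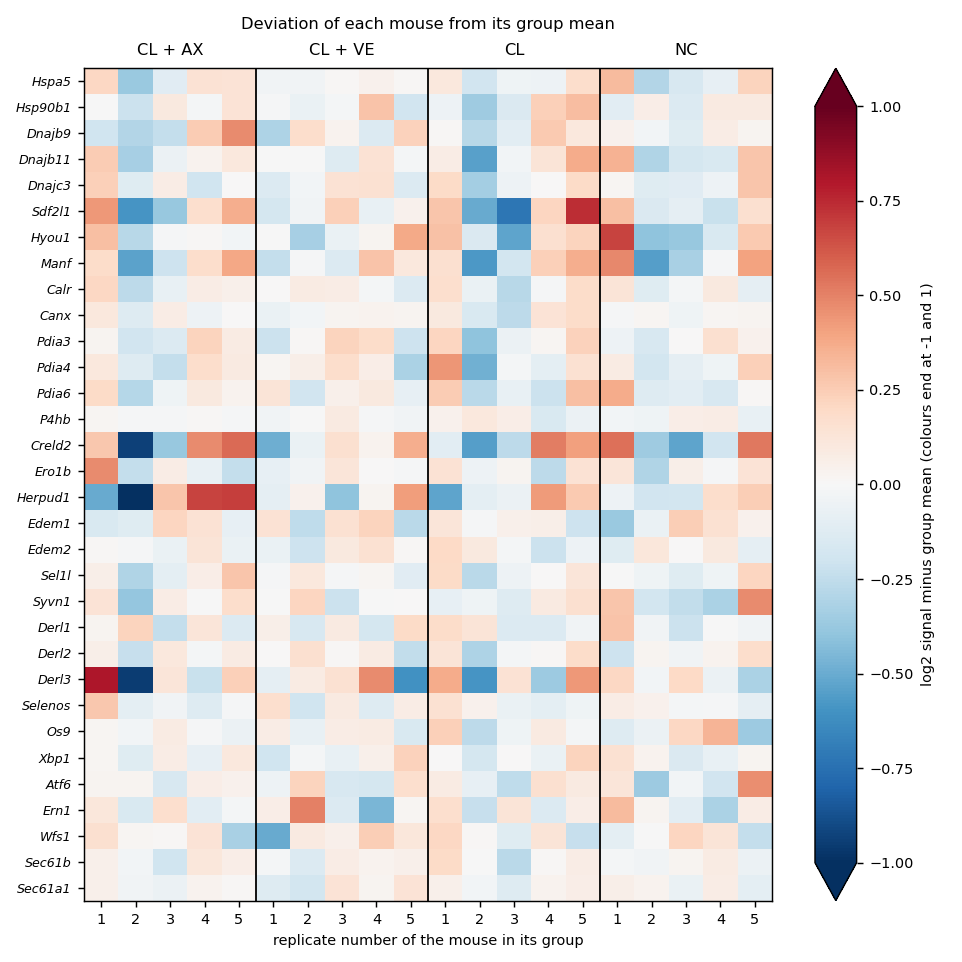
Deviation of each mouse from the mean of its group for the 32 members, as log2 signal (blue lower, red higher), with genes in rows by role and the mice of CL + AX, CL + VE, CL and NC in columns. Blue columns at replicate 2 of CL + AX and of CL run through 20 and 16 members as the lowest value, and the deepest cells are those of Creld2, Herpud1, Derl3 and Sdf2l1.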

How the data were processed

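Total RNA of each liver was labelled with biotin and hybridized to 1 array per mouse, 20 arrays in all. The authors processed the arrays with Microarray Suite (MAS5) and the Subio platform, and the deposited values are linear signal intensities per probe set, which were not brought to a common level between arrays. They were quantile-normalized here and transformed to log2. After 64 control probe sets were left out, 45037 probe sets were fitted in R 4.3.3 with limma 3.58.1 (lmFit, eBayes with trend), over all 4 groups, with 16 residual degrees of freedom before moderation and Benjamini-Hochberg adjustment over all probe sets (threshold 0.05). Of the probe sets 34945 named 1 gene, 932 named several and 9160 named none. Each gene was read from its brightest probe set that names it alone. SE values are those of the log2 fold change, and intervals are at 95%.

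The 32 members and all gene lists were chosen with earlier results of these data known. Values per mouse were given for members that passed in at least 1 comparison, at most 4 per role. Those of Hspa5, Wfs1, Edem1, Manf, Creld2 and Sdf2l1 lie outside that rule and were chosen after their values were seen. Genes of the pathway lists were named from the 2 with the smallest p in each direction. Array quality was compared by exact permutation tests. Promoter sequences are those of RefSeq (GRCm38.p6), and proteins were not analysed here. Alternatives were the scaling between arrays (none, centring on the median, trimmed mean), a floor of 16 on signals, a filter on dim probe sets, the mean over the probe sets of a gene, the methods' Welch test, the replicate number as a block, a fit of the 2 groups alone, and each array left out. The fit was tested on simulated data. The number of arrays limits the precision, and hybridization batches are not given in the sources used here.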

Additional observations from a re-analysis of the deposited data

Results flagged for a closer look

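Of the 128 pairs of a member and a group, 3 (2.3%) held 1 mouse far from the other 4, where chance gives about 1 in 20. Atf6 read 8.596 in CL + AX replicate 3, against 8.783 to 8.821 in the other mice of the group. P4hb read 12.63 in CL + VE replicate 3, against 12.51 to 12.54 in the others, and this mouse still lay below every NC mouse. Wfs1 read 6.302 in CL + VE replicate 1, against 6.858 to 7.051 in the others. For 0 members did the effects of the supplements differ by the adjusted p in limma (5 at an unadjusted p under 0.05).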

How the results depend on the processing

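Calls against NC, and those between CL + AX and CL + VE, depended on the scaling, in direction as well as number. Members called in CL against NC numbered 10, and 4 with no scaling, 6 with the mean over probe sets, 2 with the methods' Welch test, 6 with the 2 groups alone, and 6 to 10 with 1 array left out (6 without NC replicate 1 or 3). In CL + AX against NC they numbered 9, and 15 with no scaling, 19 with median centring, 2 with the Welch test and 6 to 10 with 1 array left out. In CL + VE against NC they numbered 4, and 1 with no scaling, 7 with median centring, 2 with the floor, 2 with the mean over probe sets, 1 with the Welch test and 1 to 5 with 1 array left out (1 without CL + VE replicate 2 or NC replicate 4). Between CL + AX and CL + VE they numbered 0, and 4 with no scaling, 1 with median centring and 0 to 0 with 1 array left out. Against CL they numbered 0 for both supplements in every setting run. With the replicate block the members called against NC were 10 in CL, 12 in CL + AX and 5 in CL + VE. Same-numbered mice of different groups correlated between -0.2 and 0.312 (median 0.038), with 7 of 30 pairs over 0.1. Differently numbered mice of different groups correlated between -0.378 and 0.415 (median -0.00544), with 11 of 120 pairs over 0.1. Whether the numbers pair the mice was not tested. No scaling moved the median of all genes in CL against NC to 0.389 and median centring to -0.113. The median of the members relative to all genes became -0.215 in CL against NC, -0.209 in CL + AX against NC and -0.194 in CL + VE against NC with no scaling, median centring and trimmed-mean scaling. These settings differ by a constant per array that cancels in this difference, so their values are equal by construction. With 1 array left out it ran from -0.113 to -0.00179 in CL against NC, -0.0478 to 0.0416 in CL + AX against NC, -0.139 to -0.0542 in CL + VE against NC, 0.00355 to 0.116 in CL + AX against CL, -0.0766 to 0.0205 in CL + VE against CL and 0.0413 to 0.138 in CL + AX against CL + VE. With no scaling the sign of 13 members turned in CL against NC and of 11 in CL + AX against NC, and with median centring of 7 and 12. Among members called under at least 1 of the 2, the sign turned with no scaling for Edem2 (0.127) and Sec61a1 (0.106) in CL against NC, and in CL + AX against NC for Pdia4 (0.419), Dnajb11 (0.0632), Edem2 (0.45), Derl1 (0.0597), Sec61a1 (0.34) and Os9 (0.0449). With median centring it turned among such members for Xbp1 in CL against NC (-0.331) and in CL + AX against NC for Hsp90b1 (-0.539), Canx (-0.323), Derl2 (-0.361) and Xbp1 (-0.459). Canx turned there also with trimmed-mean scaling (-0.0362) and the mean over probe sets (-0.0518). Probe sets called in CL against NC were 7910, and 3444 with the Welch test and 6768 to 8105 with 1 array left out. In CL + AX against NC they were 7762, and 16596 with no scaling, 3964 with the Welch test and 6333 to 7984 with 1 array left out. In CL + VE against NC they were 5895, and 1632 with the Welch test and 4855 to 6279 with 1 array left out. In CL + AX against CL it was 1, and 0 with no scaling, median centring, the Welch test or the replicate block, 2 with the floor and 0 to 2 with 1 array left out. In CL + VE against CL it was 0, and 26 with no scaling, 3 with the floor, the replicate block or the 2 groups alone, and 0 to 2 with 1 array left out. Between CL + AX and CL + VE it was 1, and 1886 with no scaling, 1652 with median centring, 0 with the floor, 5 with the replicate block, 24 with the 2 groups alone and 0 to 13 with 1 array left out. The mean over probe sets gives no count of probe sets. The cause of these shifts was not tested.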
